A study of Mus musculus with 11 samples.

Results

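The 32 sarcomere and Z-disc genes described here were chosen by name among the 55421 mouse genes of a heart RNA-seq count table. The choice drew on knowledge of the contractile apparatus and was made with earlier results of these data known. The 32 genes encode 6 proteins of the thick filament, 8 of the thin filament, 2 of the M-band, 13 of the Z-disc and costamere, and 3 that act in muscle protein turnover or myosin folding. Counts came from 11 female C57BL/6J mice, 8 weeks old, with no genetic change named for any group. DMSO mice (n = 4) had the left anterior descending (LAD) coronary artery ligated and received the solvent DMSO. A10i mice (n = 4) had the same ligation and received GI254023X, an inhibitor of the metalloprotease ADAM10, at 100 mg/kg in that solvent. Both groups gave tissue of the infarct and its border zone 3 days after ligation. Sham mice (n = 3) were operated without ligation, are also labelled as treated with DMSO, and gave healthy heart tissue, so that the tissue taken and the infarction cannot be told apart. Each library came from 1 mouse.

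The sarcomere is the repeating contractile unit of the cardiomyocyte. Myosin thick filaments, held in register at the M-band, pull on actin thin filaments that are anchored at the Z-disc, and titin spans from Z-disc to M-band as a spring. The Z-disc, and the costamere that links it to the cell membrane, also hold many LIM and PDZ domain proteins that sense load, and the adult mouse ventricle uses almost only the alpha form of cardiac myosin heavy chain.

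Total counts on genes lay between 21702623 and 29511768 per library. All 32 genes passed the filter on low counts in every comparison. They took 9.55 to 9.82% of all counts in sham, 7.09 to 8.39% in DMSO and 7.30 to 8.77% in A10i mice, and mitochondrial genes took 21.5 to 22.2%, 14.8 to 18.6% and 15.7 to 17.9%. Of the DMSO libraries, A105 was the highest for 21 of the 32 genes and A129 the lowest for 22. Among the A10i libraries A116 was the lowest for 26. The skeletal muscle myosins Myh1, Myh2 and Myh4 stayed at or below 0.27 CPM (counts scaled to a library of 1e+06) in every library.

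Promoter sequence is shown for the called genes with the largest falls and rises after infarction that have an entry, because these genes differed most from sham among those called. RefSeq start sites (GRCm38.p6) gave windows of 250 bases before to 50 after the start for 29 of the 32 genes, 41 windows in all. Tcap, Myom2 and Fbxo32 had no entry. Each sequence runs 5′ to 3′ on the gene's strand, from 250 bases before to 10 after the start site, and capitals mark 3 motifs on either strand. These are TATAAA, the core promoter box, then CATTCC, known as the M-CAT element of muscle promoters, and AGATAA, a site of the GATA factors.
Myh6, chr14:54966598-54966857, minus strand: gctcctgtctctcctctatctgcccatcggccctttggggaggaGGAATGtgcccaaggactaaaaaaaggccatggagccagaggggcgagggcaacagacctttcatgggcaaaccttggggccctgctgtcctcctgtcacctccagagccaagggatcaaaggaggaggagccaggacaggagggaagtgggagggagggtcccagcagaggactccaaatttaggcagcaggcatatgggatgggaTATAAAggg
Cmya5, chr13:93144715-93144974, minus strand: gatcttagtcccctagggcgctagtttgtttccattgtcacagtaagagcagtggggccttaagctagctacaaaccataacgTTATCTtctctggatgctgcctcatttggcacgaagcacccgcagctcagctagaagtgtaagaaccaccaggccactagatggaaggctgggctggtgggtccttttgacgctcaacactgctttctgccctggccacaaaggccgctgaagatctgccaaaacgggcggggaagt
Pdlim5, first start site, chr3:142391841-142392100, minus strand: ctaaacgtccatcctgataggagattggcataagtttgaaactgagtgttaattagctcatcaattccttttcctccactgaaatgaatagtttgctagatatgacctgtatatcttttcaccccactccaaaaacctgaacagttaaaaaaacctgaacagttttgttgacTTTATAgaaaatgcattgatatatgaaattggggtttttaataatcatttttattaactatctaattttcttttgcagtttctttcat
Pdlim5, second start site, chr3:142395687-142395946, minus strand: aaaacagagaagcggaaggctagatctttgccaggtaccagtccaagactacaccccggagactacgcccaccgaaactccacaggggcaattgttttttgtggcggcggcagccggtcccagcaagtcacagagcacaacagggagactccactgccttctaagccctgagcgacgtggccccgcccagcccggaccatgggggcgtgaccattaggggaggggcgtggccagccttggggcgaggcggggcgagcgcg
Smpx, chrX:157698723-157698982, plus strand: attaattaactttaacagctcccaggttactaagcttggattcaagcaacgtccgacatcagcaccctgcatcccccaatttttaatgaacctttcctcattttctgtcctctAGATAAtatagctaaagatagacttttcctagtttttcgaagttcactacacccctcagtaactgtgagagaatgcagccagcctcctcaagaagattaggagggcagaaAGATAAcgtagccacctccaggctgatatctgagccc
The window of Myh6, which fell, held CATTCC on the opposite strand and TATAAA at the annotated start. Cmya5, which also fell, and Smpx, which rose, both held AGATAA, once and at 2 places. The 2 Pdlim5 start sites are numbered by coordinate, so on this minus-strand gene the second lies upstream of the first. The window of the first held TATAAA on the opposite strand and that of the second held none of these letters.

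Over whole windows of 300 bases, searched on both strands, CATTCC was found in 11 of the 29 genes (37.9%) and in 16.6% of all 27025 genes with an entry. The CArG box, the site of serum response factor, was found in 6 (20.7% against 1.81%) and the MEF2 site in 5 (17.2% against 3.70%). TATAAA was found in 6 (20.7% against 15.7%) and AGATAA in 8 (27.6% against 12.7%). A gene was counted if any of its windows held the motif, and a MEF2 site can overlap TATAAA. The 29 genes had 41 windows and the 27025 genes 32851, and a gene with more windows has more chances of a match. Both Myl2 start sites (chr5:122092724 and 122093189) lie upstream of the gene as counted, which begins at 122100951. Myl2 is among the TATAAA and AGATAA genes. The CArG box genes were Actc1, Fhl2, Ldb3, Myl3, Myom1 and Nebl. The MEF2 site genes were Fhl2, Mybpc3, Myoz2, Synpo2l and Ttn. These matches are descriptions of letters, not of bound sites.

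Levels in healthy tissue were compared per gene length, as TPM (counts divided by the deposited exon length of the gene and scaled to the same sum in each library). That length can exceed the transcript in use, which makes the order of levels between genes uncertain. In sham mice Myh6, the alpha myosin heavy chain, had the highest TPM of the set, at 11961 ± 287 (SD, n = 3), and ranked 9th of all genes. Cardiac actin Actc1 followed at 10655 ± 245, then the ventricular light chain Myl2 at 6146 ± 242. The thin filament linker nebulette (Nebl) was the lowest, at 58.4 ± 2.09. Titin (Ttn) took 6279.8 CPM but only 113 ± 12.3 TPM, because its deposited length is the longest of the set. Spread between mice was small in sham, with a median coefficient of variation over the 32 genes of 2.68%, and was 17.1% in DMSO and 14.2% in A10i mice. All 32 genes varied more in DMSO than in sham mice, and 31 varied more in A10i than in sham mice.

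**Figure D1:**
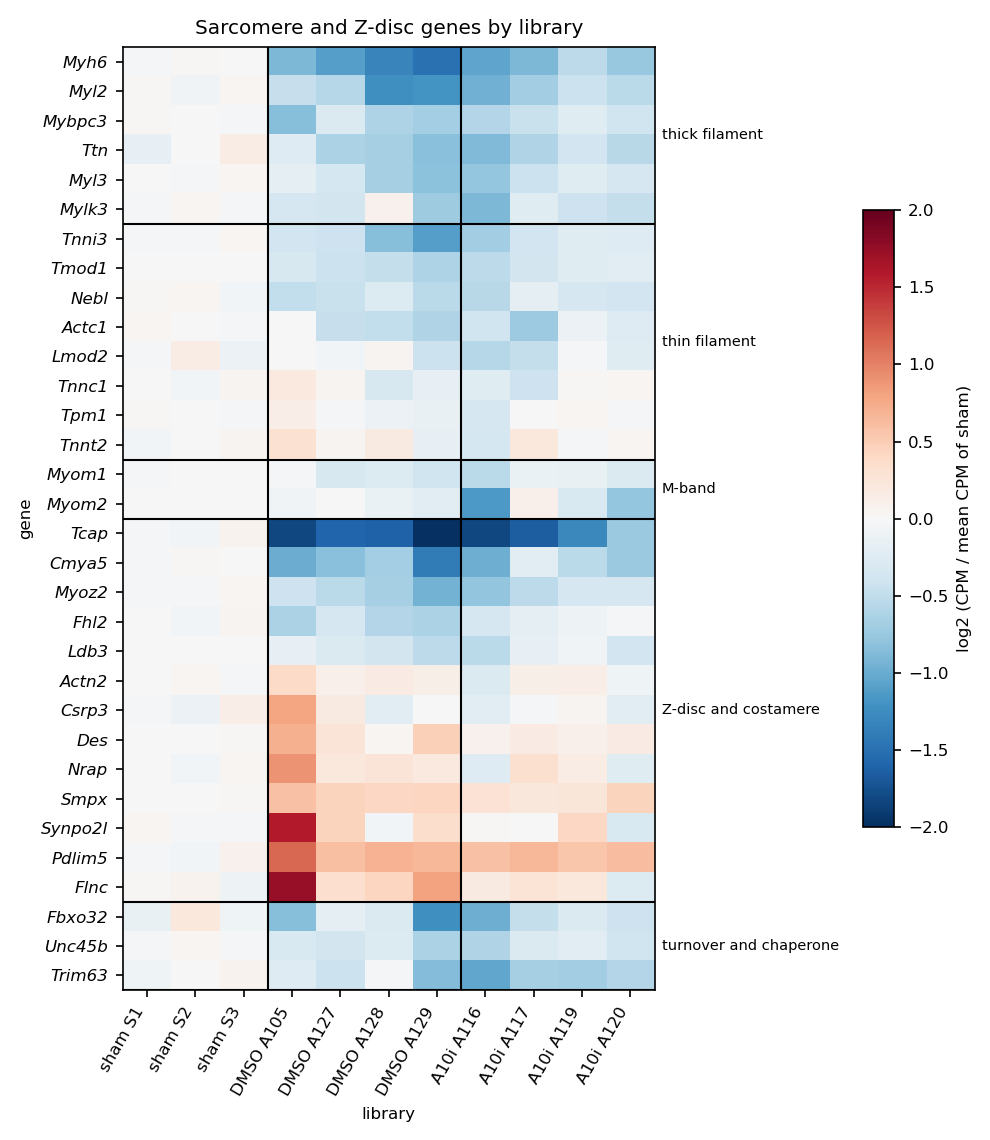
Each cell shows 1 gene in 1 library as log2 of its CPM over the mean CPM of the 3 sham libraries, with genes in rows by role and libraries in columns. Tcap is the darkest blue row in the DMSO libraries, Pdlim5 and Smpx are red in every infarct library, and library A105 holds the strongest red for Flnc (1688 CPM) and Synpo2l (578 CPM).

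The first comparison asked how sarcomere transcripts differed 3 days after infarction, in DMSO against sham mice. Tcap, Myh6 and Cmya5 fell most, and the PDZ-LIM gene Pdlim5 and the small muscle protein gene Smpx were the 2 that rose. With edgeR's quasi-likelihood test and an adjusted p under 0.01 over 17117 genes, 9 of the 32 fell, 2 rose and 21 did not pass. Of all genes tested, 22.5% were called, 12.9% higher and 9.6% lower. All DMSO libraries lay below all sham libraries for 15 of the 32 genes and for 4040 of the 17117 tested. All DMSO libraries lay above all sham libraries for 6 of the 32 and for 4298 of the 17117. In bulk tissue, fewer cardiomyocytes and less RNA per cardiomyocyte cannot be told apart. The median log2 fold change was −0.35 over the 32 genes and 0.0021 over all genes tested, but scaling to cardiomyocyte genes outside the sarcomere turned the 32-gene median to 0.13, with 10 higher and 3 lower, and library size alone gave −0.15, with 5 higher and 4 lower. Over all 17117 genes these scalings called 5312 and 3330 higher and 210 and 708 lower, and moved the median to 0.50 and 0.21. Relative to that median the 32 genes lay at −0.37 and −0.36, against −0.36 in the fit reported.

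Marker transcripts of cells other than cardiomyocytes moved with the same contrast, though such sums do not count cells. Summed fibroblast markers were 1372 to 1479 CPM in sham, 2362 to 7614 in DMSO and 5443 to 10308 in A10i mice, with 6 of 12 called higher in DMSO and 10 of 12 in A10i mice. Macrophage and monocyte markers summed to 364 to 399, 653 to 1095 and 807 to 1532 CPM, and neutrophil markers to 1.76 to 3.03, 88.7 to 179 and 16 to 60.9 CPM. Of 30 cardiomyocyte genes outside the sarcomere, 12 fell and 1 rose in DMSO mice (median −0.41), and their sum was 52052 to 52494 CPM in sham, 23946 to 35238 in DMSO and 31623 to 42341 in A10i mice. Endothelial markers summed to 1564 to 1593 CPM in sham, 1298 to 1417 in DMSO and 1547 to 1725 in A10i mice, with 3 of 10 called lower and 1 higher in DMSO mice and 1 each way in A10i mice. None of the 12 fibroblast or 12 macrophage markers was at 0 in any library. The part of any shift in cells in the fold changes of the 32 genes was not tested beyond the scaling above.

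**Figure D2:**
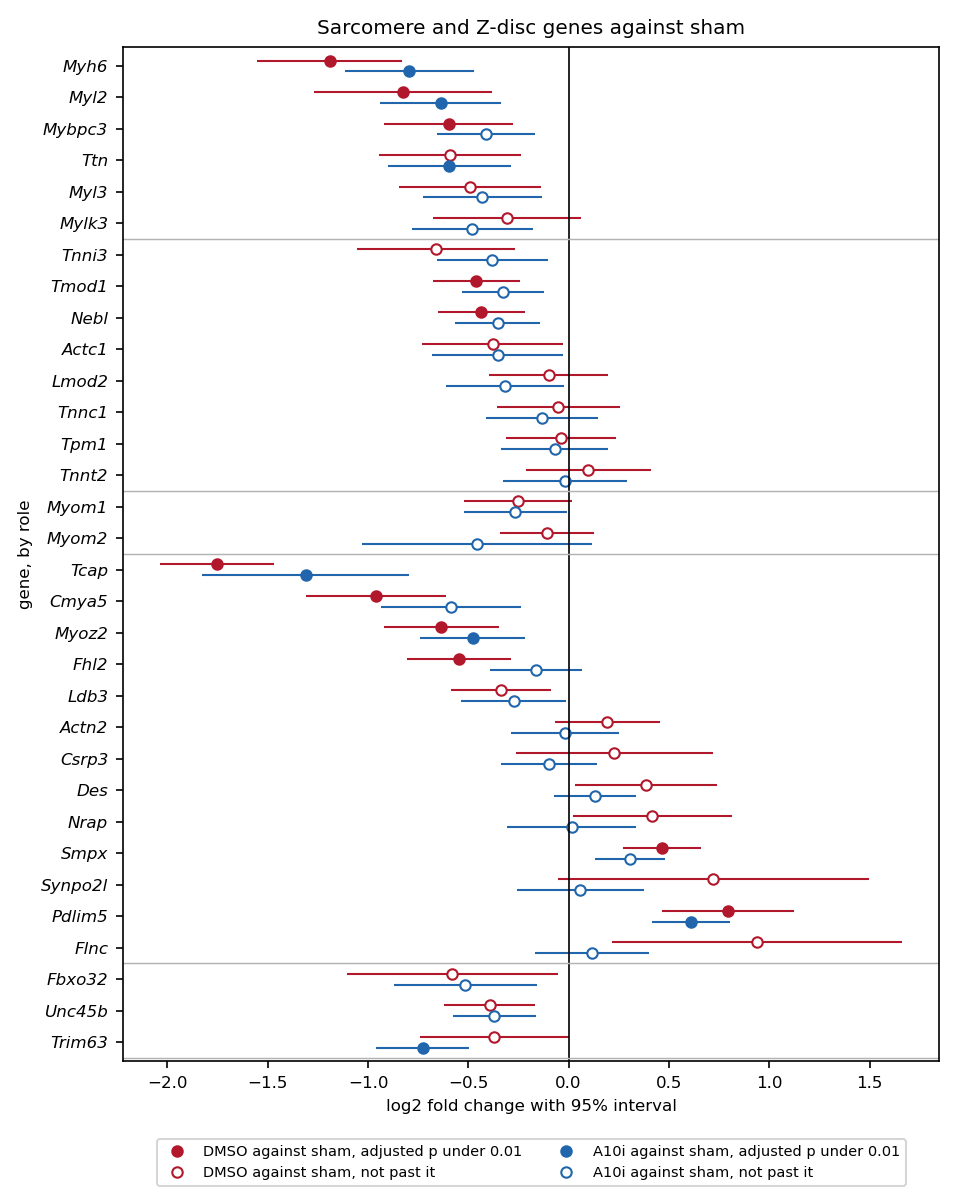
Points are edgeR log2 fold changes of the 32 genes in DMSO (red) and A10i mice (blue) against the same 3 sham mice, bars are 95% intervals, and filled points have an adjusted p under 0.01. Genes are grouped by role from thick filament to turnover, and all points of the thick filament lie to the left of 0 (Mylk3 moves to 0.17 in DMSO mice when scaled to cardiomyocyte genes) while the Z-disc runs from −1.75 for Tcap to 0.94 for Flnc.

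Of the 6 thick filament genes, 3 fell in DMSO mice and 0 rose, and all 6 had negative fold changes (median −0.59), which scaling to cardiomyocyte genes turned for Mylk3 alone, with a median of −0.10. Myh6 (ENSMUSG00000040752, chr14:54941921-54966927, mm10) stood at 37539.7, 39038 and 38189.9 CPM in the sham libraries and at 20424, 17908, 15264 and 13587 in the DMSO libraries. Every DMSO library lay below every sham library. Its log2 fold change was −1.19 (95% interval −1.55 to −0.83, adjusted p = 0.000637), and it also passed under every alternative tried. Reads of Myh6 and its close neighbour Myh7, the beta form, can be hard to separate, which makes both levels uncertain.

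Myl2, the regulatory light chain of the ventricle, fell by 0.83 (SE 0.198, adjusted p = 0.00917) from 5700.0 ± 241 to 3223 ± 886 CPM. Mybpc3, the cardiac myosin binding protein C, fell by 0.60 (adjusted p = 0.0093). Both lost the call when any 1 sham library was left out, by library size alone, and when scaled to cardiomyocyte genes (Myl2 −0.35, adjusted p = 0.0599; Mybpc3 −0.095, adjusted p = 0.592). Myl2 also failed without A127, A128 or A129, and Mybpc3 without A105 or A128. Ttn read 5593, 6309.7 and 6937 CPM in sham and 5225, 4042, 3949 and 3503 in DMSO mice, without overlap but with A105 near the sham range. Its value of −0.59 did not pass (adjusted p = 0.0148). The essential light chain Myl3 (−0.49, adjusted p = 0.0321) and the myosin light chain kinase Mylk3 (−0.31, adjusted p = 0.163) did not pass either.

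Thin filament genes were closer to the sham level, with 2 of 8 lower, 0 higher and a median of −0.24 that became 0.24 when scaled to cardiomyocyte genes. The 2 that fell were Tmod1, which caps the pointed ends of actin filaments (−0.46, adjusted p = 0.00486), and Nebl (−0.44, adjusted p = 0.00662). Scaled to cardiomyocyte genes, these 2 had values of 0.032 and 0.062 and did not pass. Both also failed when any 1 sham library was left out, by library size alone and without A127. Exons of Tmod1 overlap those of Tstd2 on the opposite strand over 1287 bases, and Tstd2 had 5.31% as many counts.

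Actc1 read 8424, 8169 and 8005 CPM in sham and 8121, 5926, 5824 and 5427 in DMSO mice. A105 lay within the sham range and the other 3 lay below it, and the log2 fold change of −0.38 did not pass (adjusted p = 0.0801). Without A105 it was −0.54 and passed (adjusted p = 0.00643). Tnnt2, the troponin that binds tropomyosin, stood at 6661, 6871 and 7151 CPM in sham and 8502, 7147, 7774 and 6185 in DMSO mice, so the groups overlapped on both sides. Its value was 0.10 (95% interval −0.21 to 0.41).

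The inhibitory troponin Tnni3 had −0.66 (adjusted p = 0.0152), and the calcium-binding troponin Tnnc1 had −0.052 (adjusted p = 0.785). The 3 troponin subunits thus spanned −0.66 to 0.10 in the same hearts. Tropomyosin Tpm1 was at −0.04 and the filament-elongating Lmod2 at −0.10, and neither passed. Of the M-band crosslinkers, Myom1 (−0.25, adjusted p = 0.119) and Myom2 (−0.11, adjusted p = 0.434) did not pass, and scaled to cardiomyocyte genes they had 0.24 and 0.39. Myom1 shares 207 exon bases with Myl12a on the opposite strand, which had 14.5% as many counts.

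The balance of thick to thin filament transcripts does not depend on the scaling between libraries. Summed counts of the 6 thick filament genes over the 8 thin filament genes were 2.08, 2.15 and 2.15 in the sham libraries, 1.25, 1.35, 1.17 and 1.18 in the DMSO libraries, and 1.45, 1.45, 1.63 and 1.47 in the A10i libraries. The 3 groups did not overlap, and the A10i ratios lay between the others. Myh6 is the largest part of the thick filament sum, and the order of the infarct groups depended on it. With Myh6 taken out of the sum, sham still lay above both infarct groups. DMSO library A127 then lay above A10i libraries A116, A117 and A120. The ratio of Myh6 to Tnnt2 alone was 5.34 to 5.68 in sham, 1.96 to 2.51 in DMSO and 2.58 to 3.92 in A10i mice. With Actc1 in place of Tnnt2, sham stayed apart at 4.46 to 4.78, but DMSO and A10i mice overlapped. The highest DMSO ratio of Myh6 to Actc1 was 3.02 (A127) and the lowest A10i ratio 2.97 (A116). These ratios were formed after the values were seen and are given without a test.

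Z-disc and costamere genes moved in both directions, with 4 of 13 lower, 2 higher and a median of 0.23 that stayed positive under each scaling and was 0.11 without A105. Tcap (ENSMUSG00000007877), telethonin, which ties the ends of titin together at the Z-disc, read 1829.7, 1786 and 1940.0 CPM in sham and 524, 614, 607 and 458 in DMSO mice. Every DMSO library held less than the lowest sham library, and the level fell by 70.3% (log2 fold change −1.75, 95% interval −2.04 to −1.47, adjusted p = 4.17e-05). Cmya5, myospryn, a costamere protein that binds desmin, read 1241, 1288 and 1263 CPM in sham and 635, 706, 789 and 478 in DMSO mice. The groups were apart by more than the spread of either, with a log2 fold change of −0.96 (95% interval −1.31 to −0.61, adjusted p = 0.00146). Tcap, Cmya5 and Myh6 were the 3 genes lower under all 17 alternatives with the same threshold.

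Myoz2, a calcineurin-binding Z-disc protein, fell by 0.63 (adjusted p = 0.00428), and Fhl2, a LIM protein that binds titin, fell by 0.55 (adjusted p = 0.00494). Neither passed when scaled to cardiomyocyte genes (Myoz2 −0.15, adjusted p = 0.172; Fhl2 −0.046, adjusted p = 0.755) or without any 1 sham library, and Fhl2 also failed by library size alone (−0.34, adjusted p = 0.0311) and without A128. The PDZ-LIM protein gene Ldb3 was at −0.34 (adjusted p = 0.0368). On the other side, Pdlim5, which binds alpha-actinin and protein kinase C, read 600.1, 595 and 656 CPM in sham and 1373, 932, 1005 and 982 in DMSO mice. All 4 DMSO libraries exceeded all 3 sham libraries, and A105 stood above the other 3. Its log2 fold change was 0.79 (95% interval 0.46 to 1.12, adjusted p = 0.00279).

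Smpx, an X-linked gene of a small muscle protein, read 220.1, 221 and 226 CPM in sham and 332, 304, 295 and 300.4 in DMSO mice. These groups were narrow and apart, with a log2 fold change of 0.47 (95% interval 0.27 to 0.66, adjusted p = 0.00272). Pdlim5 and Smpx passed under 14 of the 17 alternatives, and the 3 they failed were those that left out a sham library.

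Actn2, alpha-actinin, the main actin crosslinker of the Z-disc, read 2085, 2138 and 2030.5 CPM in sham and 2722, 2227, 2333 and 2269 in DMSO mice. The groups did not overlap, yet the value of 0.19 did not pass (adjusted p = 0.214), and it passed when scaled by library size (0.39) or to cardiomyocyte genes (0.69). The intermediate filament gene Des (0.39, adjusted p = 0.0779), the myofibril assembly gene Nrap (0.42, adjusted p = 0.0862) and the LIM gene Csrp3 (0.23, adjusted p = 0.432) did not pass. Flnc, filamin C, had the largest positive value of the 32, 0.94 (95% interval 0.22 to 1.66, adjusted p = 0.0432), and did not pass.

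Library A105 set much of this. Flnc stood at 1688 CPM in A105 and at 636, 682 and 878 in the other DMSO mice, against 511, 530.2 and 473 in sham. The actin-binding Synpo2l stood at 578 CPM in A105 and at 261, 185 and 244 in the others. Without A105 the log2 fold changes were 0.52 for Flnc (adjusted p = 0.0163), 0.25 for Synpo2l (adjusted p = 0.148) and 0.20 for Nrap (adjusted p = 0.116), against 0.94, 0.72 and 0.42 with it.

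None of the 3 turnover and folding genes passed in DMSO mice. The ubiquitin ligases Fbxo32 (−0.58, adjusted p = 0.0768) and Trim63 (−0.37, adjusted p = 0.104) and the myosin chaperone Unc45b (−0.39, adjusted p = 0.0123) all had negative values, and scaled to cardiomyocyte genes Trim63 and Unc45b had 0.10 and 0.093. Fbxo32 was the most variable of the 32 genes in sham mice, with a coefficient of variation of 14.1%.

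**Figure D3:**
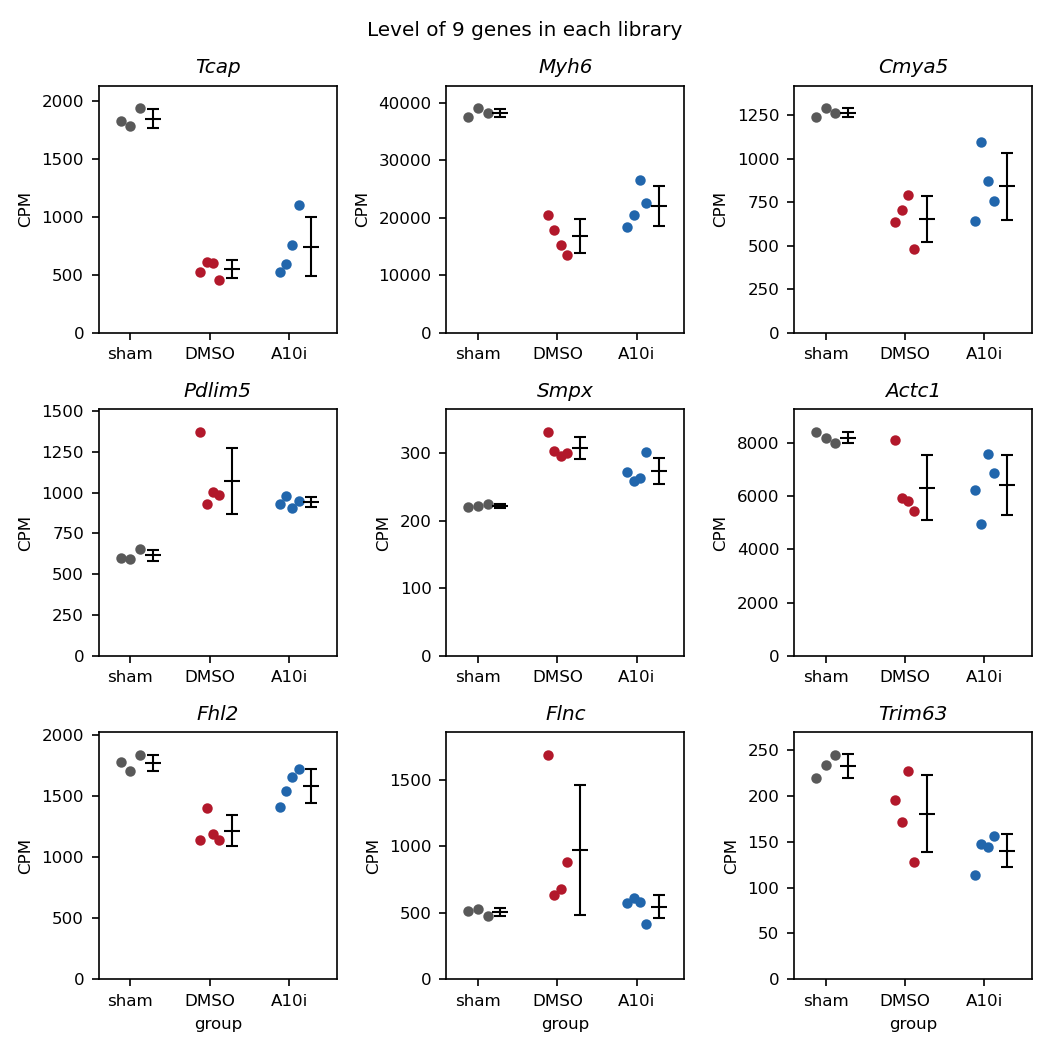
Each panel shows the CPM of 1 gene by group, with a point for each library, and a bar for the mean and SD of 3 sham, 4 DMSO and 4 A10i mice, on axes that start at 0. Tcap, Myh6 and Cmya5 are lower and Pdlim5 and Smpx higher in all DMSO libraries than in any sham library, and Fhl2 and Flnc separate DMSO from A10i mice. Among the 17117 genes tested in DMSO against sham mice, 4040 were likewise lower and 4298 higher without overlap.

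The second comparison set A10i mice against the same 3 sham libraries. Tcap, Myh6 and Trim63 fell most, and Pdlim5 was the 1 gene that rose. At an adjusted p under 0.01 over 16971 genes, 6 of the 32 fell, 1 rose and 25 did not pass. Of all genes tested, 22.9% were called, 13.7% higher and 9.11% lower. All A10i libraries lay below all sham libraries for 18 of the 32 genes and for 3987 of the 16971 tested. All A10i libraries lay above all sham libraries for 3 of the 32 and for 4206 of the 16971. The median over the 32 was −0.34, against −0.0054 over all genes. It became 0.026 when scaled to cardiomyocyte genes, with 6 higher and 4 lower. By library size alone it was −0.15, with 3 higher and 4 lower. Over all 16971 genes these scalings called 4032 and 3436 higher and 178 and 577 lower, and moved the median to 0.36 and 0.18. Relative to that median the 32 genes lay at −0.34 and −0.33, against −0.33 in the fit reported. Since the sham libraries are shared, values of the 2 infarct groups against sham are not independent.

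Among thick filament genes Myh6, Myl2 and Ttn were lower. Myh6 stood at 18424, 20497, 26533 and 22656 CPM in the A10i libraries, all below sham and overlapping the DMSO range, with a log2 fold change of −0.79 (adjusted p = 0.00224). Myl2 was at −0.64 (adjusted p = 0.00463). Ttn read 3400.2, 4119, 4815 and 4256 CPM, a change of −0.60 (adjusted p = 0.00717), and did not pass when scaled to cardiomyocyte genes (−0.24, adjusted p = 0.0183). Myh6, Myl2 and Ttn passed under 14, 11 and 9 of the 17 alternatives, and each failed when any 1 sham library was left out. Mybpc3 (−0.41), Myl3 (−0.43) and Mylk3 (−0.48) did not pass, with adjusted p of 0.0144 to 0.0266.

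No thin filament or M-band gene passed. Actc1 read 6213, 4944, 7595 and 6885 CPM, below each sham library (−0.35, adjusted p = 0.0818). Tnnt2 read 5376, 7946, 6761 and 7080.1 CPM on both sides of the sham range (−0.019, 95% interval −0.33 to 0.29). The other 6 thin filament genes lay between −0.38 for Tnni3 and −0.069 for Tpm1. Myom2 was the most variable gene among A10i mice, at 771, 1831, 1388 and 999.99 CPM, against 1717, 1713 and 1718 in sham, and its value was −0.46 (95% interval −1.03 to 0.12).

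In the Z-disc, 2 of 13 fell and 1 rose. Tcap read 522, 594, 761 and 1102 CPM, from a level like that of DMSO mice in A116 to more than all of them in A119 and A120, and its log2 fold change was −1.31 (95% interval −1.83 to −0.80, adjusted p = 0.00244). Without the filter on low counts Tcap did not pass (adjusted p = 0.0224), nor without A116, S1 or S3. Myoz2 fell by 0.48 (adjusted p = 0.00942) and did not pass when scaled to cardiomyocyte genes (−0.12, adjusted p = 0.139). Myoz2 passed under 7 of the 17 alternatives and failed when any 1 sham library was left out. Pdlim5 read 931, 978, 906 and 945 CPM, all above sham, at 0.61 (95% interval 0.42 to 0.81, adjusted p = 0.000752).

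Smpx read 272, 259, 264 and 302 CPM, again above sham in each library, and just failed to pass (0.30, adjusted p = 0.0118). Cmya5 read 644, 1095, 870.2 and 755 CPM, below sham but wide, and did not pass (−0.58, adjusted p = 0.0146). Actn2 read 1708, 2271, 2285 and 1959 CPM, around the sham level (−0.017). Fhl2, Ldb3, Csrp3, Nrap, Synpo2l, Flnc and Des lay between −0.27 and 0.13, and none passed.

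Trim63, the muscle RING-finger ubiquitin ligase, was the turnover gene that passed. It read 219, 234 and 245 CPM in sham and 114, 147, 144 and 156 in A10i mice, with a log2 fold change of −0.73 (95% interval −0.96 to −0.50, adjusted p = 0.000735). Its DMSO values of 196, 172, 227 and 127.95 CPM spanned the gap between those groups. Pdlim5 and Trim63 were the 2 genes that passed under all 17 alternatives with the same threshold. Fbxo32 (−0.52, adjusted p = 0.0287) and Unc45b (−0.37, adjusted p = 0.0103) did not pass.

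Both counts rested on the sham libraries and on the test, as did the counts over all genes. With any 1 sham library left out, 3 genes were lower and 0 higher in DMSO mice, and 1 to 2 were lower and 1 higher in A10i mice. Of all genes, these omissions called 8.72 to 8.8% in DMSO and 9.35 to 9.92% in A10i mice. With all libraries the shares were 22.5% and 22.9%. DESeq2 called 14 lower and 2 higher in DMSO, and 15 lower and 2 higher in A10i mice, with 26.6% and 25.2% of all genes. Without A116 the A10i count was 13 lower and 2 higher, and without A120 it was 3 lower and 1 higher. Of all genes, 26.1% and 16.6% were then called.

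**Figure D4:**
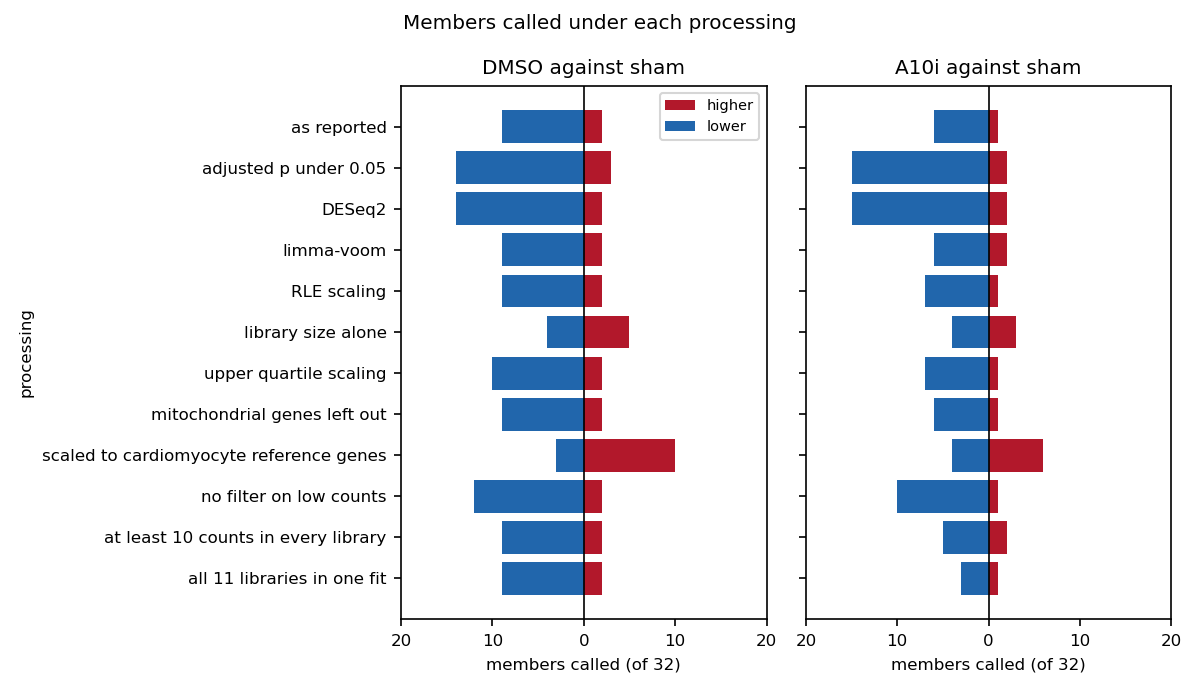
Bars give how many of the 32 genes were called higher (red, to the right) or lower (blue, to the left) against sham under each processing, for DMSO (left panel) and A10i mice (right panel). Among the processings drawn, which leave out no library, lower calls outnumber higher calls except with library size alone in DMSO mice (5 higher, 4 lower) and with scaling to cardiomyocyte genes (10 higher and 3 lower in DMSO, 6 higher and 4 lower in A10i mice). Over all genes, library size alone called 3330 higher and 708 lower in DMSO mice. Scaling to cardiomyocyte genes called 5312 higher and 210 lower in DMSO, and 4032 higher and 178 lower in A10i mice.

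The third comparison addressed the inhibitor, in A10i against DMSO mice. None of the 32 genes passed edgeR's adjusted p under 0.01, as none of the 16792 genes tested did (0%). At an unadjusted p under 0.05 there were 2 of the 32, Fhl2 and Flnc, against 13.8% of all genes. DESeq2, which called 227 genes in all, and limma-voom, which called 0, also called 0 of the 32. Fold changes over the 32 genes ranged from −0.83 for Flnc to 0.44 for Tcap, with 15 above and 17 below 0 and a median of −0.012. The median standard error was 0.17, so small differences were not detectable at this number of mice.

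Fhl2 read 1142, 1405, 1187 and 1139 CPM in DMSO and 1410.4, 1542, 1659 and 1724 in A10i mice, with 1777, 1708 and 1839 in sham. Every A10i library lay above every DMSO library, and A116 and A127 were the closest pair. Its log2 fold change was 0.38 (95% interval 0.10 to 0.66, edgeR unadjusted p = 0.0127, adjusted p = 0.229), and the adjusted p ranged from 0.0254 with DESeq2 to 0.556 over the alternatives. Flnc read 574, 608, 581 and 417 CPM in A10i mice, each below the DMSO libraries given above. Its value was −0.83 (95% interval −1.50 to −0.16, edgeR unadjusted p = 0.0202, adjusted p = 0.265), and −0.42 without A105 (adjusted p over all alternatives 0.0806 to 0.535).

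Fhl2 and Flnc were the 2 of 32 genes whose groups did not overlap, against 8.12% of all genes tested. The next 3 by p were Trim63 (−0.36, adjusted p = 0.387), Myh6 (0.39, adjusted p = 0.393) and Synpo2l (−0.67, adjusted p = 0.405), and in each the groups overlapped. Without A105 the value of Synpo2l was −0.21.

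**Figure D5:**
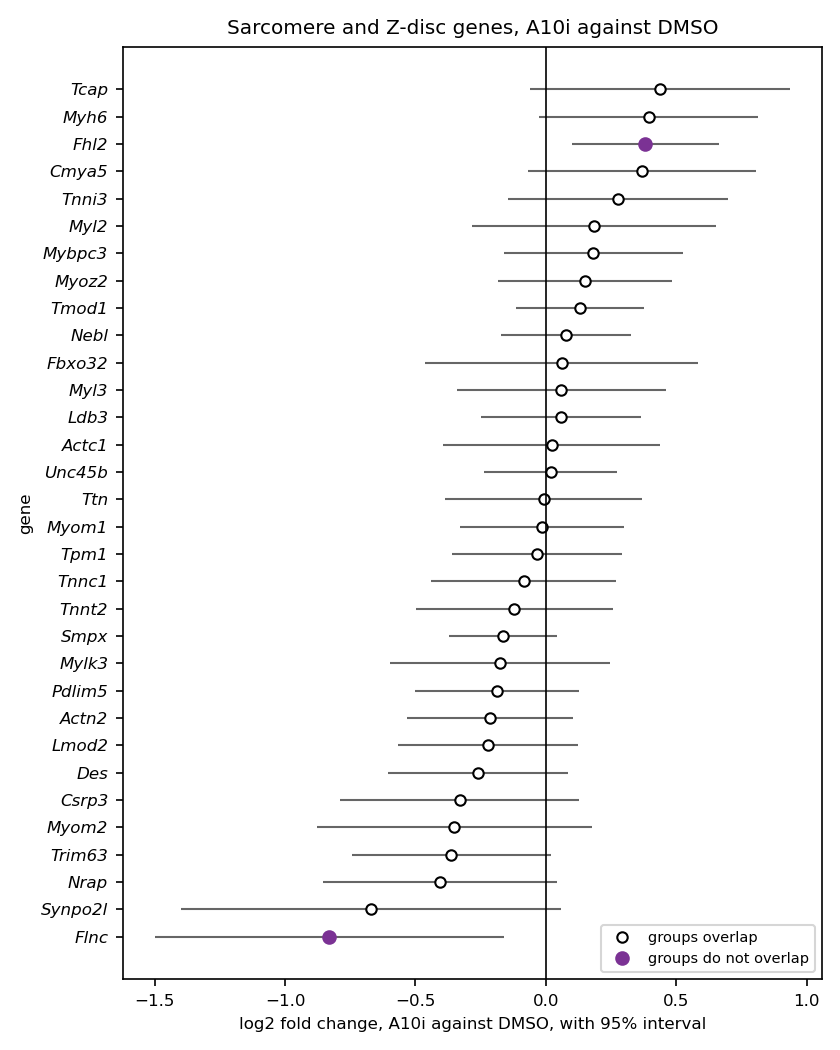
Points are edgeR log2 fold changes of the 32 genes in A10i against DMSO mice (n = 4 each) with 95% intervals, in order of value, and filled points mark Fhl2 and Flnc, whose groups do not overlap. Values run from −0.83 to 0.44, and 30 of the 32 intervals include 0.

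A list of other genes of the sarcomere and Z-disc held 65 genes outside the 32. In DMSO mice 12 of the 62 tested rose and 8 fell, with a median of 0.28, against 12.9% higher and 9.6% lower among all genes. In A10i mice 14 of 61 rose and 9 fell, with a median of 0.011, against 13.7% and 9.11%. Their summed level was 26974 CPM in A105 and 17676 to 18399 CPM in the other DMSO mice, 14247 to 15001 CPM in sham and 14621 to 17086 CPM in A10i mice. The 5 higher in DMSO mice with the smallest adjusted p were Myh7 (1.59), the stretch-responsive Ankrd1 (2.22), the PDZ-LIM genes Pdlim3 (1.15) and Pdlim7 (1.12), and the tropomyosin Tpm4 (1.32), which many cell types other than cardiomyocytes use. The 5 lower were Lrrc39 (−0.79), Obsl1 (−0.56), Myh7b (−1.65), Lmod3 (−1.48) and Synpo2 (−0.53). Some listed genes are shared with smooth or skeletal muscle, whose marker sums were 417 to 433 and 29.3 to 35.3 CPM in sham, 390 to 472 and 33.7 to 49.6 in DMSO, and 495 to 586 and 35.8 to 60.7 in A10i mice.

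The ratio of Myh6 to Myh7 counts, which no scaling alters, was 57.3, 65.9 and 51.5 in sham, 10.2, 8.63, 8.17 and 6.59 in DMSO, and 23.3, 10.2, 24.6 and 23 in A10i mice. Both infarct groups were below sham without overlap, and the 4 A10i libraries exceeded the 4 DMSO libraries, with A117 just above the highest of them (A105). Atrial markers, whose sum includes the natriuretic peptide gene Nppa, were 104.9 to 228 CPM in sham, 475 to 1672 in DMSO and 519 to 971 in A10i mice, and their part in the Myh7 values was not tested. In A10i against DMSO mice, 0 of the 62 tested genes of this list passed, with 3 higher and 10 lower at an unadjusted p under 0.05.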

How the data were processed

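Strand-specific libraries of poly(A) RNA were aligned by the authors to mm10 with GSNAP and counted per Ensembl gene with featureCounts 2.0.1, and the deposited values are raw counts, with gene coordinates and lengths. The strand setting of the counting is not given in the sources used here. From these counts, 92 spike-in rows (at most 0.000194% of a library) were left out, and 55154 of the 55421 identifiers were paired with symbols. Levels are CPM on TMM-scaled library sizes over all 11 libraries, and TPM with the deposited lengths. Each comparison used edgeR 4.0.16 (R 4.3.3) on its 2 groups alone, with filterByExpr, TMM, the robust two-sided quasi-likelihood F-test and Benjamini-Hochberg adjustment over all genes tested, at 0.01. DESeq2 1.42.0, limma-voom (limma 3.58.1), 5 other scalings, 2 other filters, 1 fit over all 11 libraries, leaving out each library in turn and a threshold of 0.05 were the alternatives. The edgeR, DESeq2 and limma-voom fits of each comparison were tested on simulated data. The other scalings and filters, the joint fit and the omissions of a library were not. The study's independent hypothesis weighting was not used. Where no source names separate litters or batches, p-values measure the spread between these mice. All 32 genes are reported by role; in A10i against DMSO, those with unadjusted p under 0.05, or else the 5 smallest, are named, and every library is given for the largest changes, 5 core genes and the 3 smallest p. The 32 genes and all gene lists were chosen with earlier results of these data known.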

Additional observations from a re-analysis of the deposited data

Results flagged for a closer look

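Among 64 groups of 4 libraries examined (32 genes in DMSO and in A10i mice), 3 held a library far from the others by Dixon's criterion, and chance flags about 1 in 20 groups. Nrap stood at 1479 CPM in DMSO library A105 and at 908 to 946 in the other 3. Pdlim5 stood at 1373 CPM in the same library and at 932 to 1005 in the others. Tpm1 stood at 5186 CPM in A10i library A116 and at 6462 to 6696 in the others. A105 and A116 are also the libraries that were highest and lowest for most of the 32 genes in their groups.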

How the results depend on the processing

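Of the 32 genes, 11 were called in DMSO and 7 in A10i mice against sham. At an adjusted p under 0.05 these were 17 (14 lower) and 17 (2 higher, 15 lower). DESeq2 gave 14 lower in DMSO mice, and 17 (2 higher, 15 lower) in A10i mice. In A10i mice limma-voom and a minimum of 10 counts in every library each gave 2 higher, no filter gave 11 (10 lower) and the joint fit 4 (3 lower). Library size alone gave 5 higher and 4 lower in DMSO mice (median −0.15) and 3 higher in A10i mice (median −0.15). Scaling to cardiomyocyte genes gave 10 higher and 3 lower (median 0.13), and 6 higher (median 0.026). These 2 scalings moved all genes together. In DMSO mice they called 3330 and 5312 of 17117 genes higher and 708 and 210 lower. In A10i mice they called 3436 and 4032 of 16971 genes higher and 577 and 178 lower. Leaving out 1 library gave 3 to 14 called in DMSO mice (0 to 2 higher, 3 to 12 lower) and 2 to 15 in A10i mice (1 to 2 higher, 1 to 13 lower). The sham omissions gave the lowest counts, with 2 sham libraries left, and called 8.72 to 9.92% of all genes over both comparisons.

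Values changed sign as follows. Library size alone gave, in DMSO mice, Tnnc1 0.15, Tpm1 0.16, Lmod2 0.10 and Myom2 0.096, and in A10i mice Tnnt2 0.16, Tnnc1 0.053, Tpm1 0.11, Actn2 0.16, Csrp3 0.085 and Fhl2 0.024. Scaling to cardiomyocyte genes gave, in DMSO mice, Mylk3 0.17, Actc1 0.11, Tnnc1 0.44, Tpm1 0.45, Tmod1 0.032, Lmod2 0.38, Nebl 0.062, Myom1 0.24, Myom2 0.39, Ldb3 0.15, Trim63 0.10 and Unc45b 0.093. In A10i mice it gave Actc1 0.016, Tnnt2 0.34, Tnnc1 0.23, Tpm1 0.29, Tmod1 0.036, Lmod2 0.040, Nebl 0.0077, Myom1 0.093, Actn2 0.34, Ldb3 0.083, Csrp3 0.27 and Fhl2 0.20. With limma-voom Nrap was −0.0090 in A10i mice. Leaving out 1 library gave −0.031 to 0.36 for Csrp3 and −0.15 to 0.032 for Tnnc1 in DMSO mice, and in A10i mice −0.10 to 0.098 for Nrap, −0.10 to 0.081 for Tnnt2, −0.10 to 0.010 for Tpm1, −0.069 to 0.064 for Actn2 and −0.081 to 0.16 for Synpo2l.

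In A10i against DMSO mice 0 of the 32 genes passed under every alternative run. With 3 or 4 mice a group, small differences were not detectable. No paired analysis was possible because mouse numbers are not shared between groups.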
